A study of Solanum pimpinellifolium and Solanum chilense with 12 samples.

Results

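The genes described here are 9 tomato genes of the lipoxygenase and jasmonate biosynthesis route, of 34718 genes with usable values. They were chosen by gene ID: 5 lipoxygenases (Solyc03g122340, Solyc01g006540, Solyc01g006560, Solyc08g014000 and Solyc01g099190), 2 allene oxide synthases (Solyc04g079730 and Solyc11g069800), 1 allene oxide cyclase (Solyc02g085730) and 1 OPR3, an oxophytodienoate reductase (Solyc07g007870). All 9 IDs were found in the table of expression values. They were chosen by family and not by a rule on expression values, though with earlier results of these data known. The table pairs the IDs with no names, so the family of each gene is that of the list it was chosen from.

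The study sequenced mRNA of styles with their stigmas from the self-compatible (SC) species S. pimpinellifolium LA1585 and the self-incompatible (SI) species S. chilense LA0130. The 12 libraries fall into 4 groups of 3: SCP (SC styles at 24 h after self-pollination), SCUP (unpollinated SC styles at 24 h), SIP (SI styles at 24 h after self-pollination) and SIUP (unpollinated SI styles at 24 h). Each species is represented by 1 accession, so the mating system and the species cannot be told apart. P styles also hold pollen and pollen tubes, and in such bulk tissue fewer cells of a type and less RNA per cell cannot be told apart.

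Lipoxygenases add oxygen to polyunsaturated fatty acids and give hydroperoxides, from which several families of oxylipins are made. In the plastid, allene oxide synthase turns a hydroperoxide of linolenic acid into an unstable epoxide, and allene oxide cyclase closes its ring to give 12-oxophytodienoic acid. OPR3 reduces this compound in the peroxisome, and beta-oxidation then shortens the chain to jasmonic acid. The isoleucine conjugate of jasmonic acid brings JAZ repressors to the receptor COI1 and so releases the transcription factor MYC2. In tomato, loss of COI1 makes plants female sterile, and in Arabidopsis loss of OPR3 makes flowers male sterile.

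Expression is given as RPKM, reads per kilobase of exon, which the paper describes as scaled to mapped reads. Reads counted on genes made 99.98% to 99.99% of the library totals that the values imply. The reads behind the values ranged from 10174283 to 14499207 per library. Replicate libraries were not equally alike. SCP1 differed by more than 2-fold from SCP2 at 14.8% of genes and from SCP3 at 14.0%, against 5.10% between SCP2 and SCP3. SCUP2 differed in this way from SCUP1 at 13.1% of genes and from SCUP3 at 6.38%, against 3.16% between SCUP1 and SCUP3. SIUP1 differed so from SIUP2 at 10.3% of genes and from SIUP3 at 6.58%, against 2.17% between SIUP2 and SIUP3. Pairs of SIP libraries differed so at 4.51% to 6.92% of genes. SCUP2 also had the highest SC level of Solyc10g007270, listed here as the pollen gene LAT52, with 3274 RPKM, and that gene ranged from 1860 to 2213 RPKM in SCP, against 1275 to 3274 RPKM in SCUP. In SI styles the same gene ranged from 591 to 1086 RPKM in SIP, against 160 to 488 RPKM in SIUP. The 488 RPKM was in SIUP1, against 160 in SIUP2 and 161 in SIUP3. Solyc03g120960, listed as the stigma gene STIG1, ranged from 167 to 263 RPKM in SCP, against 374 to 645 RPKM in SCUP, and from 536 to 711 RPKM in SIP, against 738 to 1033 RPKM in SIUP. The IDs of these 2 markers could not be checked against an annotation, and their part in the results below was not tested.

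Of the 9 genes, 7 reached at least 1 RPKM in at least 3 libraries of each fit and were tested. Among the 7, 1 gene changed with pollination past an adjusted p of 0.05 (limma, Benjamini-Hochberg over all genes): the lipoxygenase Solyc03g122340, which was higher in SIP than in SIUP styles. None passed between SCP and SCUP, and none passed for the difference of responses between the species. Over all genes, 6.89% passed in SC styles, 3.65% in SI styles and 1.04% for the difference of responses and the counts of 0, 1 and 0 of 7 are to be read against those shares. At an unadjusted p under 0.05 there were 2 of the 7 genes in SC, 3 in SI and 1 for the difference, against 27.7%, 26.6% and 12.9% of all genes tested. The 3 in SI include Solyc04g079730, which passed the filter only through its SIP libraries, the group where it is higher. With limma's voom on reads recovered from the RPKM values, 0, 1 and 0 genes passed, and 2, 3 and 0 had an unadjusted p under 0.05.

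**Figure D1:**
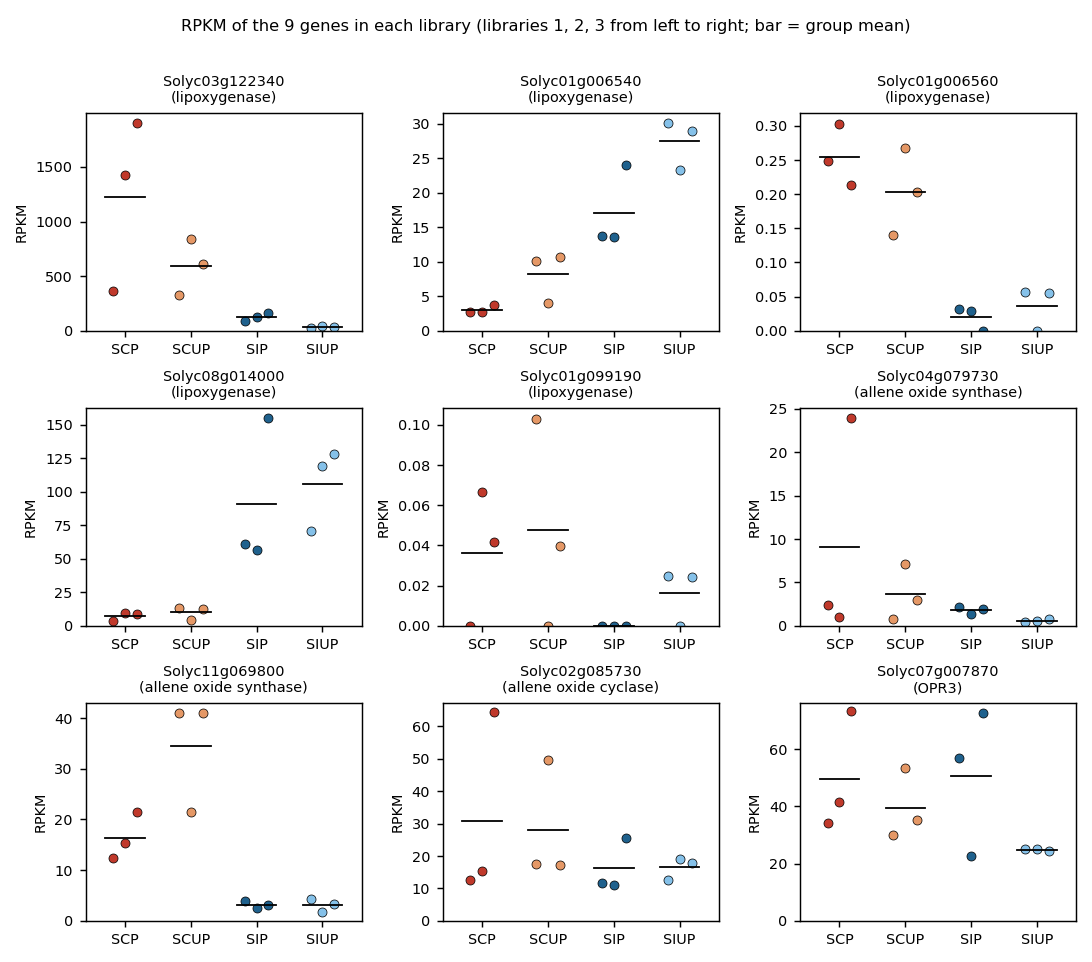
RPKM (vertical axis, linear and starting at 0, with its own scale in each panel) of the 9 genes in the SCP, SCUP, SIP and SIUP libraries, with a point per library and a bar at the group mean of 3. In the panel of Solyc03g122340 the 3 SIP points lie between 85.7 and 163 RPKM, above the 3 SIUP points between 26.2 and 40.5 RPKM, while the SCP and SCUP points overlap.

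Solyc03g122340, a lipoxygenase gene on chromosome 3, carried the change in SI styles. It had 85.7, 122 and 163 RPKM in SIP1, SIP2 and SIP3, against 26.2, 40.5 and 31.8 RPKM in SIUP1, SIUP2 and SIUP3. The lowest SIP library, SIP1, lay above the highest SIUP library, SIUP2, and the groups did not overlap. The mean was 123 ± 38.5 RPKM in SIP and 32.8 ± 7.21 RPKM in SIUP (SD, n = 3 each). On the log2(RPKM + 0.5) scale the gene rose by 1.87 (SE 0.26, 95% interval 1.26 to 2.48), a 3.65-fold change with an adjusted p of 0.0176 in limma's test. Of 16 other settings of the analysis, 13 kept the call, with adjusted p between 0.0143 and 0.0911. The call was lost without SIP2 (1.85, adjusted p = 0.0591), without SIUP3 (1.86, adjusted p = 0.0826) and with all 12 libraries in the fit (adjusted p = 0.0911).

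In SC styles Solyc03g122340 was the most highly expressed of the 9 genes in every library and also varied widely. Its levels were 364, 1422 and 1898 RPKM in SCP1, SCP2 and SCP3, against 327, 840 and 610 RPKM in SCUP1, SCUP2 and SCUP3. SCP2 and SCP3 lay above all SCUP libraries and SCP1 lay within their range, so the groups overlapped. The log2 difference was 0.85 (SE 0.65, 95% interval -0.69 to 2.39, adjusted p = 0.443), and without SCP1 it was 1.57 (adjusted p = 0.0872). The SI response exceeded the SC response by 1.02 on the log2 scale, with an interval of -0.67 to 2.71 that holds 0 (adjusted p = 0.647). This difference was 0.30 without SCP1 and 1.48 without SCP3. The change in SI styles is therefore not shown to differ from that in SC styles.

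The length by which the RPKM values of Solyc03g122340 were divided stands out. The steps between its values imply a length of 351 bases, where those of the other 4 lipoxygenases imply 2940 to 3477 bases. Its high RPKM rests on this short length in part, as its read numbers show. It had 306, 484 and 637 reads in SIP1, SIP2 and SIP3, against 107, 167 and 133 reads in SIUP1, SIUP2 and SIUP3, and in SC libraries it had 1603 to 9174 reads. In SI libraries the lipoxygenase Solyc08g014000 had more reads, 1823 to 5077, at a lower RPKM than Solyc03g122340 in all 3 SIP libraries. The ratio between P and UP of a gene does not depend on its length.

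Solyc01g006540, a lipoxygenase gene on chromosome 1, was lower in P than in UP libraries of SC styles without passing the threshold. Its levels were 2.72, 2.69 and 3.70 RPKM in SCP1, SCP2 and SCP3, against 10.03, 3.95 and 10.8 RPKM in SCUP1, SCUP2 and SCUP3. All SCP libraries lay below all SCUP libraries, and SCUP2 lay close to the SCP libraries and apart from SCUP1 and SCUP3. This was the only 1 of the 7 tested genes without overlap in SC styles, where 36.3% of all genes tested had none. Its log2 difference was -1.20 (SE 0.38, 95% interval -2.10 to -0.31) with an adjusted p of 0.1004 in limma's test. Without SCUP2 it was -1.63 with an adjusted p of 0.0236, and with all 12 libraries in the fit the adjusted p was 0.0324.

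In SI styles Solyc01g006540 stood at higher RPKM in all libraries than in any SC library. It had 13.7, 13.6 and 23.9 RPKM in SIP1, SIP2 and SIP3, against 30.1, 23.3 and 28.9 RPKM in SIUP1, SIUP2 and SIUP3. The groups overlapped by SIP3, which lay just above SIUP2. Pollinated minus unpollinated styles gave a log2 difference of -0.71 (SE 0.24, 95% interval -1.28 to -0.15, adjusted p = 0.127), and it kept its sign in all 16 other settings, with adjusted p of 0.0541 to 0.345. The responses of the species differed by 0.49 (95% interval -0.56 to 1.54, adjusted p = 0.743).

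Solyc08g014000, a lipoxygenase gene on chromosome 8, was among the highest of the 9 genes in SI styles and stood low in SC styles. It had 60.9, 56.4 and 155 RPKM in SIP1, SIP2 and SIP3, against 70.4, 120 and 128 RPKM in SIUP1, SIUP2 and SIUP3. SIP3 was the highest and SIP1 and SIP2 the lowest of the 6 SI libraries. The log2 difference was -0.34 (95% interval -1.32 to 0.65, adjusted p = 0.629), and a change of 2-fold or more downward lies within that interval.

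In SC styles Solyc08g014000 had 3.91, 9.37 and 8.89 RPKM in SCP1, SCP2 and SCP3, against 13.2, 4.52 and 12.9 RPKM in SCUP1, SCUP2 and SCUP3. SCUP2 fell among the SCP libraries, so the groups overlapped. The log2 difference of -0.39 (95% interval -1.53 to 0.75, adjusted p = 0.652) and the SI value both moved with single libraries. The SC difference was -0.01 without SCP1 and -0.87 without SCUP2, and the SI difference was -0.08 without SIP2 and -0.80 without SIP3. The difference of responses was 0.05 with a wide interval, -1.49 to 1.59, and it changed sign in 6 of 21 other settings.

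The other 2 lipoxygenases were close to the detection limit and were not tested. Solyc01g006560, which has 1 listed gene between it and Solyc01g006540 on chromosome 1, had 0.249, 0.303 and 0.213 RPKM in SCP1, SCP2 and SCP3, against 0.141, 0.268 and 0.203 RPKM in SCUP1, SCUP2 and SCUP3. These values stand for 9 to 12 reads in SCP and 6 to 11 reads in SCUP libraries, and the groups overlapped. In SI styles it had 1, 1 and 0 reads in SIP1, SIP2 and SIP3, against 2, 0 and 2 reads in SIUP1, SIUP2 and SIUP3. A count of 0 allows up to 3 reads, which is 0.0879 RPKM in SIP3 and 0.0834 RPKM in SIUP2. Solyc01g099190, also on chromosome 1, had 0, 3 and 2 reads in SCP1, SCP2 and SCP3, against 5, 0 and 2 reads in SCUP1, SCUP2 and SCUP3. It had no read in any SIP library, against 1, 0 and 1 in SIUP1, SIUP2 and SIUP3, so no difference was detectable at this depth. How reads that match several lipoxygenase genes were counted is not given in the sources used here, and low counts of related genes are uncertain for that reason.

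The 2 allene oxide synthase genes, whose enzymes act on the hydroperoxides made by lipoxygenases, had different patterns. Solyc04g079730 on chromosome 4 had 2.16, 1.31 and 1.97 RPKM in SIP1, SIP2 and SIP3, against 0.389, 0.5502 and 0.759 RPKM in SIUP1, SIUP2 and SIUP3. All SIP libraries lay above all SIUP libraries. Together with Solyc03g122340 it made 2 of 7 tested genes without overlap in SI styles, where 32.0% of all genes tested had none. The values stand for 23 to 34 reads in SIP and 7 to 14 reads in SIUP libraries. This gene entered the SI test only through its 3 SIP libraries, which alone reached 1 RPKM. This came to a log2 difference of 1.11 (SE 0.27, 95% interval 0.47 to 1.76, adjusted p = 0.0704), with an adjusted p of 0.0481 in limma's test without the intensity trend and of 0.0481 to 0.493 over its 12 other settings.

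In SC styles Solyc04g079730 was set by single libraries. Its levels were 2.41, 1.05 and 23.9 RPKM in SCP1, SCP2 and SCP3, against 0.835, 7.10 and 2.99 RPKM in SCUP1, SCUP2 and SCUP3. SCP3 lay far above the other SCP libraries, SCUP2 was the highest of SCUP, and the groups overlapped. The log2 difference was 0.55 (SE 1.08, 95% interval -1.998 to 3.09, adjusted p = 0.794), and without SCP3 its sign turned, to -0.63 (adjusted p = 0.654). The difference of responses was 0.57 with an interval of -2.12 to 3.26, the widest of the 7 genes tested.

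Solyc11g069800, the allene oxide synthase gene on chromosome 11, had 12.5, 15.3 and 21.5 RPKM in SCP1, SCP2 and SCP3, against 41.0, 21.4 and 41.0 RPKM in SCUP1, SCUP2 and SCUP3. SCP3 and SCUP2 were almost level, and the groups overlapped by that pair alone. Its log2 difference was -1.02 (SE 0.32, 95% interval -1.77 to -0.28, adjusted p = 0.0966). Without SCUP2 it was -1.33 with an adjusted p of 0.0430 in limma's test, so that in the SC comparison without SCUP2 this gene and Solyc01g006540 made 2 of 7 tested genes called. In the same comparison without SCP1 none of the 7 was called.

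In SI styles Solyc11g069800 had 3.91, 2.59 and 3.04 RPKM in SIP1, SIP2 and SIP3, against 4.31, 1.78 and 3.28 RPKM in SIUP1, SIUP2 and SIUP3. The SIP libraries lay within the SIUP range, and the log2 difference was 0.07 (95% interval -0.66 to 0.81, adjusted p = 0.900). Its difference of responses was the largest of the 7 tested genes, 1.10 on the log2 scale (SE 0.47, 95% interval 0.07 to 2.12). The unadjusted p of 0.0384 gave an adjusted p of 0.351 over all genes, and over the 21 other settings the adjusted p ran from 0.168 to 0.588.

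Solyc02g085730, the allene oxide cyclase gene on chromosome 2, showed no shift with pollination beyond the spread of its libraries. It had 12.5, 15.5 and 64.5 RPKM in SCP1, SCP2 and SCP3, against 17.5, 49.6 and 17.2 RPKM in SCUP1, SCUP2 and SCUP3. Each SC group held 1 high library, SCP3 and SCUP2, and the others lay between 12.5 and 17.5 RPKM. The log2 difference was -0.08 (95% interval -1.69 to 1.53, adjusted p = 0.957), and it was -0.80 without SCP3 (adjusted p = 0.360) and 0.42 without SCUP2 (adjusted p = 0.707).

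The cyclase gene Solyc02g085730 had 11.8, 11.2 and 25.5 RPKM in SIP1, SIP2 and SIP3, against 12.6, 18.9 and 17.99 RPKM in SIUP1, SIUP2 and SIUP3. SIP3 was the highest and SIP1 and SIP2 the lowest, as for Solyc08g014000. For this gene the log2 difference was -0.11 (95% interval -0.89 to 0.67, adjusted p = 0.852), and the difference of responses was -0.03 (95% interval -1.87 to 1.81).

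Solyc07g007870, the OPR3 gene on chromosome 7, was the steadiest of the 7 tested genes in SIUP and not in SIP. It had 56.8, 22.5 and 72.6 RPKM in SIP1, SIP2 and SIP3, against 25.0, 25.1 and 24.3 RPKM in SIUP1, SIUP2 and SIUP3. SIP1 and SIP3 lay above all SIUP libraries and SIP2 lay below them. The mean was 50.6 ± 25.6 RPKM in SIP and 24.8 ± 0.429 RPKM in SIUP (SD, n = 3 each). On the log2 scale it differed by 0.86 (SE 0.40, 95% interval -0.08 to 1.79, adjusted p = 0.216). Without SIP2 it was 1.36 with an adjusted p of 0.0238 in limma's test, and this was the only 1 of its 16 other settings that called it.

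In SC styles Solyc07g007870 had 34.1, 41.4 and 73.4 RPKM in SCP1, SCP2 and SCP3, against 30.1, 53.3 and 35.1 RPKM in SCUP1, SCUP2 and SCUP3. SCP3 and SCUP2 were again the highest of their groups, and the groups overlapped. The log2 difference was 0.29 (95% interval -0.50 to 1.08, adjusted p = 0.625). Its sign turned without SCP3, to -0.03, and it was 0.53 without SCUP2. The difference of responses was 0.57 (95% interval -0.68 to 1.82, adjusted p = 0.754), and without SIP3 it was 0.23.

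**Figure D2:**
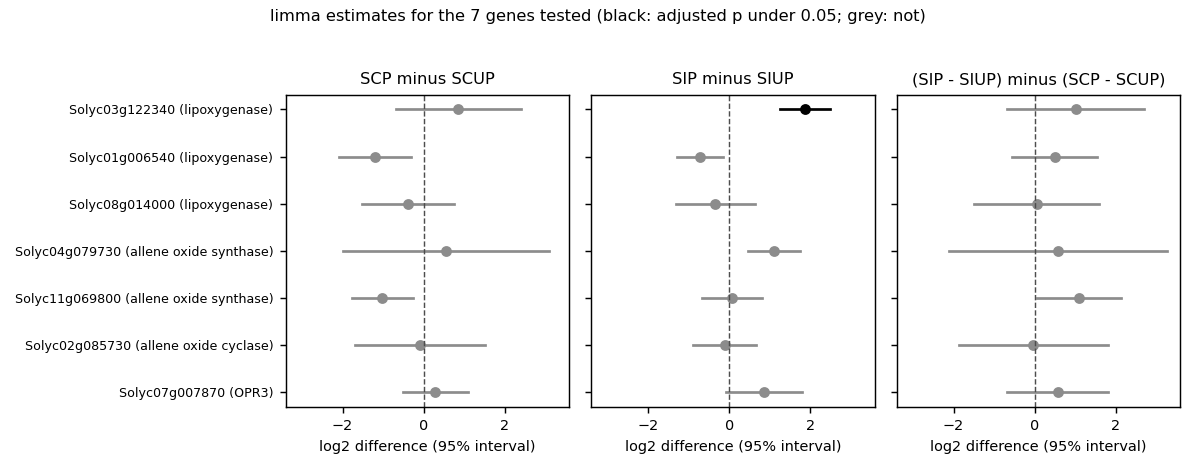
Log2 difference on the log2(RPKM + 0.5) scale (horizontal axis) of the 7 tested genes, with points at the limma estimate and lines for its 95% interval, for SCP minus SCUP, SIP minus SIUP and the difference of these. The black point is Solyc03g122340 in SI styles, 1.87 with an interval of 1.26 to 2.48, and all other estimates are grey, with an adjusted p of 0.05 or more.

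Set side by side, the 7 tested genes did not move as a block. In SC styles 3 of the 7 had a positive log2 difference, against 38.7% of all genes, and their median was -0.08, against a median of -0.12 over all genes. In SI styles 4 of 7 were positive, against 37.2% of all genes, with a median of 0.07 against -0.11 over all genes. The 4 include Solyc04g079730, which passed the filter only through its SIP libraries. With all its SIUP libraries under 1 RPKM it could enter only with a positive sign, which therefore does not count as support. With no filter its log2 difference was also 1.11. For the difference of responses 6 of 7 were positive and the median was 0.57, against 0.05 over all genes, with 55.1% of all genes positive. The exception was the allene oxide cyclase gene Solyc02g085730 at -0.03. With 7 genes that share libraries, these medians describe the list and were not tested.

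The order of mean RPKM within a group was not the same in SC and SI libraries, and this was not tested. The order depends on the length assigned to each gene, which was 351 bases for Solyc03g122340. In SCP the mean RPKM was highest for Solyc03g122340 (1228 ± 785) and Solyc07g007870 (49.7 ± 20.9), followed by Solyc02g085730 (30.9 ± 29.2), Solyc11g069800 (16.4 ± 4.59), Solyc04g079730 (9.12 ± 12.8), Solyc08g014000 (7.39 ± 3.02) and Solyc01g006540 (3.04 ± 0.578, SD, n = 3 each). From Solyc07g007870 down to Solyc08g014000 every neighbouring pair in SCP overlapped. In SCUP the order was Solyc03g122340 (592 ± 257), Solyc07g007870 (39.5 ± 12.2), Solyc11g069800 (34.5 ± 11.3), Solyc02g085730 (28.1 ± 18.6), Solyc08g014000 (10.2 ± 4.92), Solyc01g006540 (8.25 ± 3.74) and Solyc04g079730 (3.64 ± 3.18, SD, n = 3 each). There the lipoxygenase Solyc03g122340 stood apart from all others, and Solyc02g085730 did not overlap with Solyc08g014000 below it.

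In SIP the mean RPKM was highest for Solyc03g122340, with the value given above, and Solyc08g014000 (90.7 ± 55.5), whose libraries overlapped. Below them came Solyc07g007870, Solyc01g006540 (17.1 ± 5.95) and Solyc02g085730 (16.2 ± 8.08), each overlapping with the gene above it. In SIUP the lipoxygenase Solyc08g014000 (106 ± 31.3 RPKM) stood above all others without overlap, followed by Solyc03g122340, Solyc01g006540 (27.5 ± 3.61) and Solyc07g007870, which overlapped in that order, and by Solyc02g085730 (16.5 ± 3.42, SD, n = 3 each). The allene oxide synthase genes were lower in both SI groups, Solyc11g069800 at 3.18 ± 0.671 RPKM in SIP and 3.12 ± 1.28 RPKM in SIUP. Solyc04g079730 averaged 1.82 ± 0.445 RPKM in SIP and 0.566 ± 0.186 RPKM in SIUP. Levels between the species were not tested, since reads of both were aligned to 1 tomato genome. The paper reports that a smaller share of SI than of SC read pairs mapped to it. The part of this in the order of the genes was not tested.

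Libraries of a group differed in the same direction for several of these genes. SCP3 was the highest SCP library for 6 of the 7 tested genes and the highest for 31.4% of all genes. SIP3 was the highest SIP library for 5 of the 7 (37.4% of all genes), and SIP2 the lowest for 6 (37.4% of all genes). SCUP2 was the highest SCUP library for 4 genes, Solyc03g122340, Solyc04g079730, Solyc02g085730 and Solyc07g007870, and the lowest for the other 3, Solyc01g006540, Solyc08g014000 and Solyc11g069800. Over all genes SCUP2 was the highest SCUP library for 28.3% and the lowest for 53.8%, so it was at an extreme for most genes. In SCUP2 the deviation from the SCUP mean on the log2 scale was 1.21 for Solyc04g079730, 0.99 for Solyc02g085730 and -0.95 for Solyc08g014000. SCUP2 was also the SCUP library with the highest level of Solyc10g007270, and the part of that in these deviations was not tested.

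**Figure D3:**
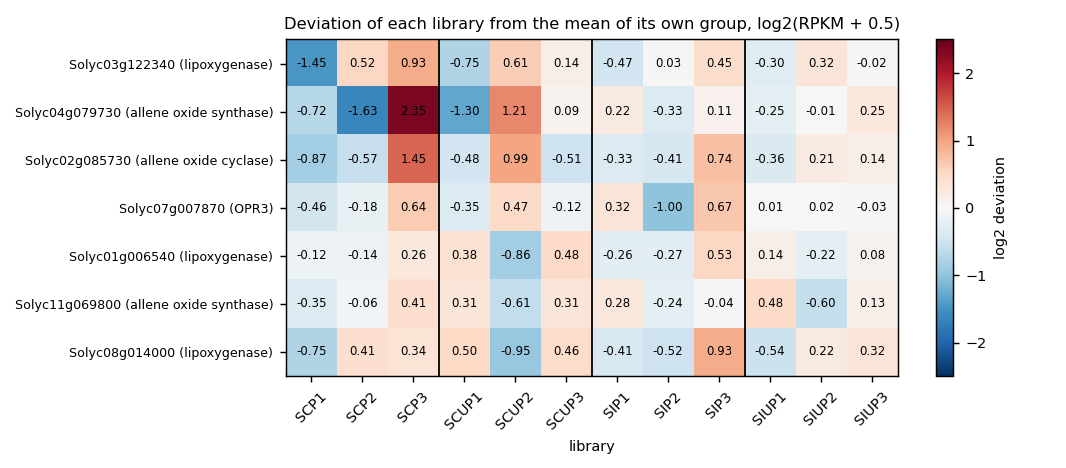
Deviation of each library from the mean of its own group on the log2(RPKM + 0.5) scale (colour and printed value, red above and blue below the mean) for the 7 tested genes (rows) in the 12 libraries (columns, with lines between groups). In SCUP2 the upper 4 rows are above and the lower 3 rows below the group mean, from 1.21 for Solyc04g079730 to -0.95 for Solyc08g014000, and SCP3 is red in all 7 rows.

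Correlations over the 12 libraries, after each gene was centred within its species, are given as a description because the libraries and their groups are shared. The genes were set apart by the sign of their deviation in SCUP2, which is also 1 of the 12 libraries. Among the 4 genes above the group mean in SCUP2, Pearson's r ranged from 0.43 between Solyc03g122340 and Solyc02g085730 to 0.74 between Solyc04g079730 and Solyc02g085730, the allene oxide synthase and cyclase genes. Among the 3 genes below it, r ranged from 0.39 between Solyc08g014000 and Solyc11g069800 to 0.75 between Solyc01g006540 and Solyc11g069800. The 12 pairs between the sets ranged from -0.51 for Solyc03g122340 with Solyc01g006540 to 0.18 for Solyc08g014000 with Solyc02g085730. Without SCUP2, over 11 libraries and in a setting chosen after seeing the data, r ranged from 0.46 to 0.73 and from 0.40 to 0.75 within the sets. Between the sets it then ranged from -0.51 to 0.46, so that the ranges overlapped by the pair of Solyc08g014000 and Solyc02g085730.

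Among all 20276 other genes that passed the filter over the 12 libraries, the gene most like Solyc03g122340 by this measure was Solyc03g120550 (r = 0.94, n = 12 libraries), with a log2 difference of 1.24 in SI (adjusted p = 0.0241) and 0.36 in SC (adjusted p = 0.464). Genes were centred by species only, so the difference between P and UP is part of r. The SI change of a gene picked in this way is therefore no independent evidence. The gene most like Solyc01g006540 was Solyc05g008900 (r = 0.98), and that most like Solyc08g014000 was Solyc04g076660 (r = 0.98). For Solyc04g079730 it was Solyc07g041750 (r = 0.97), for Solyc11g069800 Solyc04g015680 (r = 0.97), for Solyc02g085730 Solyc10g081560 (r = 0.94) and for Solyc07g007870 Solyc03g096050 (r = 0.96). No member was the gene most like another member, which says little with so few members among 20276 genes. These IDs carry no annotation in the sources used here.

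Further genes of the route were taken from 3 lists of IDs. The lists were written from general knowledge of tomato genes and could not be checked against an annotation, apart from the IDs that the study annotated, so their counts and medians hold for the listed IDs only. The list meant for other lipoxygenases and for branches that compete for hydroperoxides held 15 IDs. In SC styles 7 were tested and 1 rose, Solyc08g029000, and in SI styles 5 were tested and 1 fell, Solyc05g014790, against 6.89% and 3.65% of all genes called in either direction. None of 7 passed for the difference of responses, where 1.04% of all genes passed, and 3 had an unadjusted p under 0.05 (12.9% of all genes). The median log2 difference of the list was 0.59 in SC and -0.25 in SI, against -0.12 and -0.11 over all genes.

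Solyc08g029000, listed as a lipoxygenase without an annotation to check it, had 130, 10.7 and 18.1 RPKM in SCP1, SCP2 and SCP3, against 1.59, 2.08 and 1.87 RPKM in SCUP1, SCUP2 and SCUP3. All SCP libraries lay above all SCUP libraries, SCP1 far above the others. It rose by 3.68 on the log2 scale (SE 0.83, adjusted p = 0.0472 in limma's test), a call that 6 of 16 other settings kept. It was 2.63 without SCP1 (adjusted p = 0.0138) and was lost without any other SC library, with adjusted p up to 0.158 over all settings. In SI styles it had 4.84, 2.70 and 1.20 RPKM in SIP1, SIP2 and SIP3, against 1.18, 0.325 and 1.02 RPKM in SIUP1, SIUP2 and SIUP3 (adjusted p = 0.156). The SI groups did not overlap either, with SIP3 just above SIUP1. The difference of responses was -2.42 (adjusted p = 0.366 in limma's test).

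Solyc05g014790 is annotated by the study with a lipoxygenase activity term and was picked there from these libraries. It had 74.8, 76.2 and 86.4 RPKM in SIP1, SIP2 and SIP3, against 127, 183 and 171 RPKM in SIUP1, SIUP2 and SIUP3. All SIP libraries lay below all SIUP libraries. It fell by 1.001 on the log2 scale (SE 0.16, adjusted p = 0.0254), with the call kept in 9 of 16 other settings and lost, among others, without SIP1, SIP2, SIP3, SIUP2 or SIUP3, with adjusted p up to 0.251 over all settings. In SC styles it had 13.6, 68.1 and 63.0 RPKM in SCP1, SCP2 and SCP3, against 72.9, 74.3 and 90.0 RPKM in SCUP1, SCUP2 and SCUP3, and its log2 difference of -1.0045 (adjusted p = 0.306) was -0.26 without SCP1, the lowest library. All SCP libraries also lay below all SCUP libraries, and the difference of responses was 0.004 (adjusted p = 0.998 in limma's test). The implied length of this gene was 855 bases. Solyc09g075870, given the same term in the study's analysis of genes picked from these libraries, stayed under 0.4 RPKM in all libraries and was not tested. It had 9, 15 and 9 reads in SCP1, SCP2 and SCP3, against 0, 2 and 1 reads in SCUP1, SCUP2 and SCUP3. In SI styles it had 2, 2 and 4 reads in SIP1, SIP2 and SIP3, against 2, 0 and 1 reads in SIUP1, SIUP2 and SIUP3.

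The list meant for the precursor, the later steps and the conjugation of jasmonate held 5 IDs. In SC styles all 5 were tested and 1 rose, and in SI styles 0 of 4 passed, with 0 at an unadjusted p under 0.05 (6.89% and 3.65% of all genes were called, and 26.6% had such a p in SI). For the difference of responses 1 of 5 passed and was lower in SI (1.04% of all genes passed). The median log2 difference was -0.16 in SC and 0.10 in SI, against -0.12 and -0.11 over all genes. The gene that rose was Solyc08g078390, which the study annotated with a jasmonic acid biosynthesis term. The study reported such terms for genes it picked from these libraries, so this rise is no independent evidence of direction for the list. It had 248, 243 and 259 RPKM in SCP1, SCP2 and SCP3, against 109, 153 and 101 RPKM in SCUP1, SCUP2 and SCUP3. All SCP libraries lay above all SCUP libraries, and SCUP2 was again the highest SCUP library. It rose by 1.07 on the log2 scale (SE 0.20, adjusted p = 0.0262), with the call kept in 12 of 16 other settings and lost without SCP2, SCP3, SCUP1 or SCUP3, with adjusted p up to 0.129.

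In SI styles Solyc08g078390 had 160, 166 and 173 RPKM in SIP1, SIP2 and SIP3, against 166, 177 and 190 RPKM in SIUP1, SIUP2 and SIUP3. The groups overlapped and the log2 difference was -0.09 (95% interval -0.33 to 0.14, adjusted p = 0.575). Its response in SI was lower than that in SC by a tested difference of -1.16 (SE 0.21, adjusted p = 0.0310, interaction in limma over 12 libraries). That call held in 10 of 21 other settings, with adjusted p of 0.00871 to 0.102.

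The list of jasmonate signalling genes and targets held 23 IDs, entered as the receptor COI1, MYC2, JAZ repressors and proteins that accumulate on jasmonate treatment. In SC styles 0 of 17 tested passed, against 6.89% of all genes, and 3 had an unadjusted p under 0.05, against 27.7% of all genes. In SI styles 4 of 17 tested rose and none fell, against 3.65% of all genes called in either direction, and the study had picked 2 of the 4 from these libraries. For the difference of responses 1 of 20 was higher in SI, against 1.04% of all genes. The median log2 difference of the list was 0.40 in SC, 0.66 in SI and 0.57 for the difference of responses, against -0.12, -0.11 and 0.05 over all genes.

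Solyc08g076930, which the study named MYC2, had 131, 151 and 125 RPKM in SIP1, SIP2 and SIP3, against 58.1, 55.8 and 61.7 RPKM in SIUP1, SIUP2 and SIUP3. The groups were far apart, and the gene rose by 1.20 on the log2 scale (SE 0.11, adjusted p = 0.00573), called in all 16 other settings. In SC styles it had 93.8, 84.1 and 94.2 RPKM in SCP1, SCP2 and SCP3, against 67.8, 51.1 and 72.6 RPKM in SCUP1, SCUP2 and SCUP3, without overlap (log2 difference 0.52, adjusted p = 0.121). The difference of its responses was 0.68 (adjusted p = 0.170).

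Solyc12g009220, which the study named as a JAZ gene, had 399, 436 and 488 RPKM in SIP1, SIP2 and SIP3, against 175, 127 and 147 RPKM in SIUP1, SIUP2 and SIUP3. The groups did not overlap, and the gene rose by 1.57 on the log2 scale (SE 0.15, adjusted p = 0.00591), called in all 16 other settings. In SC styles it had 554, 576 and 610 RPKM in SCP1, SCP2 and SCP3, against 366, 481 and 450 RPKM in SCUP1, SCUP2 and SCUP3, again without overlap (log2 difference 0.43, adjusted p = 0.183). Its response was larger in SI than in SC by 1.13 (SE 0.22, adjusted p = 0.0420), a call that 6 of 21 other settings kept, with adjusted p of 0.0245 to 0.128. The study picked Solyc08g076930 and Solyc12g009220 from these libraries, so they are no independent evidence of direction for their list.

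The other 2 genes that rose in SI styles were listed as JAZ genes without an annotation to check them. Solyc07g042170 had 206, 182 and 339 RPKM in SIP1, SIP2 and SIP3, against 59.0, 96.4 and 73.4 RPKM in SIUP1, SIUP2 and SIUP3. SIP3 was the highest, and the groups did not overlap. It rose by 1.64 (SE 0.27, adjusted p = 0.0296), a call kept in 10 of 16 other settings and lost, among others, without SIP1, SIP2, SIP3, SIUP2 or SIUP3, with adjusted p up to 0.122. Its log2 difference in SC styles was 0.67, with overlapping groups (adjusted p = 0.314 in limma's test). The difference of its responses was 0.97 (adjusted p = 0.481). Solyc03g122190 had 76.5, 69.4 and 92.4 RPKM in SIP1, SIP2 and SIP3, against 44.3, 47.8 and 52.4 RPKM in SIUP1, SIUP2 and SIUP3. These groups did not overlap either, and the gene rose by 0.71 (SE 0.14, adjusted p = 0.0428), called in 7 of 16 other settings and lost, among others, without SIP1, SIP2, SIP3, SIUP2 or SIUP3, with adjusted p up to 0.237. Its log2 difference in SC styles was of like size, 0.64, with overlapping groups (adjusted p = 0.343 in limma's test). The difference of its responses was 0.07 (adjusted p = 0.974), so neither gene is shown to respond differently between the species.

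**Figure D4:**
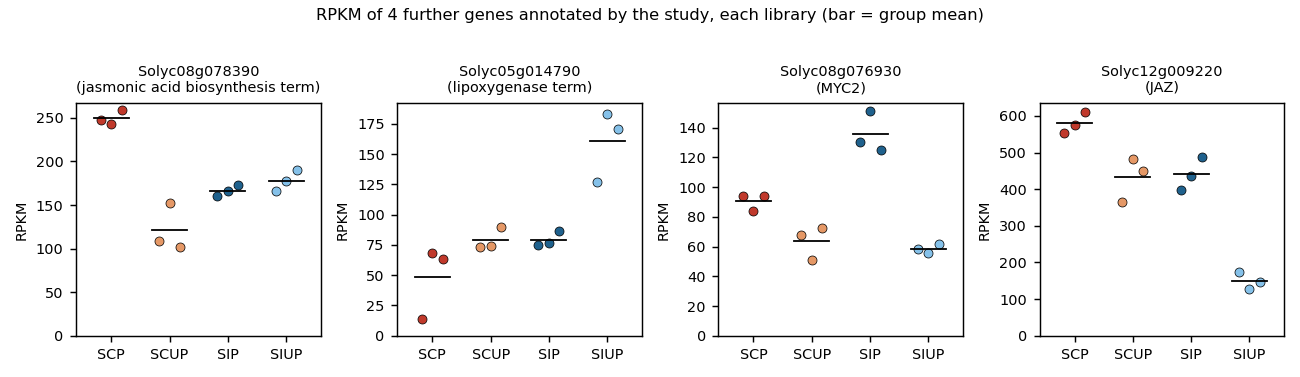
RPKM (vertical axis, linear and starting at 0) of 4 further genes annotated by the study in the SCP, SCUP, SIP and SIUP libraries, with a point per library and a bar at the mean of 3. Solyc08g078390 is higher in SCP (243 to 259 RPKM) than in SCUP (101 to 153 RPKM), with the SI groups overlapping, whereas Solyc08g076930 and Solyc12g009220 lie higher in SIP than in SIUP without overlap.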

How the data were processed

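The RPKM values per gene were deposited by the authors, who ran Trimmomatic 0.32 on the read pairs, TopHat2 against a tomato reference and HTSeq to count. Which genome and annotation builds they took is not given in the sources used here. Another copy of the table holds the authors' log2 fold changes, p-values and marks, which were not used. 7 genes with error codes and 1 line of totals were left out. The file with read pair numbers was not used.

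The members and lists were chosen with earlier results of these data known. Groups come from the library titles. The study describes the replicates as biological, without saying whether they were separate plants. limma 3.58.1 (R 4.3.3, with intensity trend) was run on log2(RPKM + 0.5) for genes that reached 1 RPKM in 3 or more libraries of a fit, with Benjamini-Hochberg adjustment over all genes tested and a threshold of 0.05. SC and SI were fitted separately on the libraries of each species, and the difference of responses as an interaction over 12. The fold changes are on this scale and understate those of low genes. The fits were tested on simulated data, drawn independently for each gene and library, so libraries that stand apart at many genes were not covered. The spacing of a gene's values gave whole reads for 27852 of 27852 genes above 0 (tolerance 0.0001 reads), which also gave depth and lengths. Depths of 10174283 to 14499207 reads per library leave genes with few reads imprecise, and the limit of 3 reads for a count of 0 covers counting error only.

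Alternatives were the pseudocount (0.1 or 1), the filter (none or 5 RPKM), upper-quartile and quantile scaling, no trend, a replicate block, voom on recovered reads, all 12 libraries in the fit, and each library left out. Named were all 9 members, list genes called in any comparison and, of the 3 genes most like each member by Pearson's r, the nearest. The gene reference at hand holds other identifiers than the table and matched none of its IDs, so lists were neither extended nor trimmed by product name, and promoters, proteins and coordinates were not used here.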

Additional observations from a re-analysis of the deposited data

Results flagged for a closer look

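2 results differed between the species by a test of the difference itself, the interaction in limma over 12 libraries. Solyc08g078390 had a difference of responses (SI minus SC) of -1.16 on the log2 scale, with a change of -0.09 in SI styles and of 1.07 in SC styles (adjusted p = 0.0310). Solyc12g009220 had a difference of 1.13, with a change of 1.57 in SI styles and of 0.43 in SC styles (adjusted p = 0.0420). The first was called in 10 and the second in 6 of 21 other settings. With voom on recovered reads both calls were lost (adjusted p = 0.0671 for Solyc08g078390 and 0.0795 for Solyc12g009220), and with a replicate block too (0.0809 and 0.102). Neither is one of the 9 genes, none of which passed this test. The study picked Solyc12g009220 from these libraries, and it reported the term of Solyc08g078390 for genes it picked from them.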

How the results depend on the processing

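The number of the 9 genes called in SC styles was 0, and it was 1 with all 12 libraries in the fit (Solyc01g006540) and 0 to 2 when 1 library was left out, with 2 only without SCUP2. In SI styles it was 1, and it was 2 without the intensity trend (Solyc03g122340 and Solyc04g079730, which passed the filter only through its SIP libraries, the group where it is higher), 0 with all 12 libraries in the fit and 0 to 1 when 1 library was left out, with 0 without SIUP3. The 1 gene called without SIP2 was Solyc07g007870 and not Solyc03g122340. For the difference of responses it was 0 in all 21 other settings. Calls over all genes moved more: from 1303 to between 256 and 1213 in SC, from 670 to between 94 and 2311 in SI and from 210 to between 32 and 389 for the difference when 1 library was left out. With all 12 libraries in the fit 3674 genes were called in SC, and voom called 28 for the difference of responses.

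The samples share only a number: the deviations of same-numbered libraries from their group means correlated at 0.36, 0.20 and -0.07 in SC and at 0.16, -0.21 and 0.06 in SI, and not every library correlated best with its own number. With a replicate block 0 of the 9 genes were called in SC, 1 in SI (Solyc03g122340, adjusted p = 0.0447) and 0 for the difference, and over all genes 1099, 126 and 125. With 3 libraries a group and SEs of up to 1.08 in SC styles, changes of 2-fold lie within the interval of several members.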
